A study of Mus musculus with 6 samples.

Results

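The expression of ribosome biogenesis and nucleolar genes was compared between HDAC11-/- and WT Tregs. A list of 41 genes was used, and 38 of them were measured by 70 probe sets that the platform annotation assigns to that gene alone, out of 12393 genes and 22626 probe sets in all. Dkc1 and Nob1 were not analysed here, and Mrto4 was left out because its probe set is also assigned to pseudogenes of the gene. The HDAC11-/- Tregs came from mice labelled fl-HDAC11/Foxp3cre, in which a floxed Hdac11 gene is deleted by a YFP-Cre fusion expressed from the Foxp3 gene. The control Tregs came from wild type C57BL/6 mice, whose label names neither a floxed gene nor Cre, so that the effects of the deletion and of Cre cannot be told apart. The methods give an age of 6 to 8 weeks for mice in general. The labels describe the cells as CD4+CD25+, and the sources used here do not say how they were isolated for the arrays. There were 3 Affymetrix Mouse430A arrays per genotype. Nothing in the labels ties each array to a separate mouse, so the p-values cover the spread between arrays, which may be technical.

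Ribosomes are built in the nucleolus. RNA polymerase I transcribes the ribosomal DNA into a long precursor, which small nucleolar ribonucleoproteins (snoRNPs) modify, and separate sets of factors then process it into the RNAs of the small and the large subunit. Quiescent lymphocytes have small nucleoli, and T cells enlarge them when they are activated and begin to grow. Myc is a well known activator of these genes and of Odc1, which encodes the first enzyme of polyamine synthesis.

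The 6 arrays correlated at 0.998 to 0.999 within HDAC11-/-, 0.997 within WT and 0.985 to 0.988 between genotypes. Neither Hdac11 probe set passed the adjusted p (log2 fold change of -0.12 ± 0.07, SE, limma adjusted p = 0.222 for the brighter). No source used here says whether they lie inside the deleted part, so they check nothing. The paper assayed Hdac11 separately, by qPCR in Tregs of WT mice and of mice with the conditional deletion. Of 5 T cell markers none was called (mean level of 11.92 to 11.95 in HDAC11-/- and 11.98 to 12.01 in WT), though Cd4 fell by 0.32 on the log2 scale (limma adjusted p = 0.00121). Of 5 Treg markers none was called either, with Ctla4 rising by 0.50 (adjusted p = 0.000269), Ikzf2 falling by 0.35 on the log2 scale (adjusted p = 0.0453), and Il2ra, the gene of CD25, at -0.01 (adjusted p = 0.935). Foxp3 was dimmer than the brightest bacterial control, at 3.73 in HDAC11-/- and 3.68 in WT, where that control averaged 5.14 in HDAC11-/- and 5.39 in WT. Markers of other states and cells moved with genotype. Of 14 mitotic genes 13 were called higher, with a mean level of 8.55 to 8.61 on the HDAC11-/- arrays and 6.56 to 6.62 on the WT arrays. Of 15 immediate early genes 10 were called higher (10.85 to 10.87 in HDAC11-/- and 8.55 to 8.62 in WT). Of 6 B cell genes 4 were called lower (6.16 to 6.22 in HDAC11-/- and 6.91 to 7.0 in WT), and Pax5 did not exceed the brightest bacterial control in either genotype. Of 10 dendritic cell and macrophage genes 2 were called higher and 2 lower (6.14 to 6.32 in HDAC11-/- and 6.30 to 6.38 in WT). Those called lower were H2-Aa (log2 fold change of -1.60) and Cd74 (-0.79), and those called higher were C1qa (0.70) and C1qb (0.69). Of the 10, 3 did not exceed the brightest bacterial control in either genotype, Adgre1, Cd14 and the called C1qb, and C1qa did not exceed it in WT. Of 5 CD8 T and NK cell genes 1 was called lower (7.10 to 7.14 in HDAC11-/- and 7.27 to 7.35 in WT), and of 3 erythroid genes none was called (5.6 to 5.77 in HDAC11-/- and 5.55 to 5.57 in WT). The part of these cells and states in the values below was not tested. In bulk samples a change in the share of a cell type and a change of RNA per cell cannot be told apart.

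Most of the ribosome biogenesis and nucleolar genes were slightly higher in HDAC11-/- Tregs. A gene is said here to have risen or fallen when its limma p, adjusted by Benjamini-Hochberg over all probe sets, was under 0.05, and to have been called when the difference also reached 1.5-fold, a log2 fold change of 0.585. Each gene was read from its brightest probe set. Of the 38 genes 26 rose (68.4%, against 22.9% of all genes), 1 fell (2.63%, against 23.2% of all genes) and 11 did neither. The 4 called higher were Odc1, Nop16, Nhp2 and Bysl (10.5%, against 3.46% of all genes), and none was called lower by limma or by SAM, where 3.72% of all genes were called lower. No brightest probe set of the list had a 1.5-fold fall, so this held at any p threshold. The median log2 fold change was 0.29, a 1.22-fold difference, with a range from -0.35 to 0.85, against a median of -0.04 over all genes. On 28 genes every HDAC11-/- array lay above every WT array (73.7%, against 28.2% of all genes), on 5 every HDAC11-/- array lay below (29.6% of all genes did), and on 5 the arrays overlapped.

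The list holds no dim gene. A background chosen after the values were seen was the 6008 genes whose mean level lay in the range of the list (7.47 to 13.15). Of these, 37.3% rose and 24.8% fell, 4.23% were called higher and 4.41% lower, and the median log2 fold change was 0.07. On 2757 of the 6008 every HDAC11-/- array lay above every WT array, and on 1852 every HDAC11-/- array lay below.

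**Figure D1:**
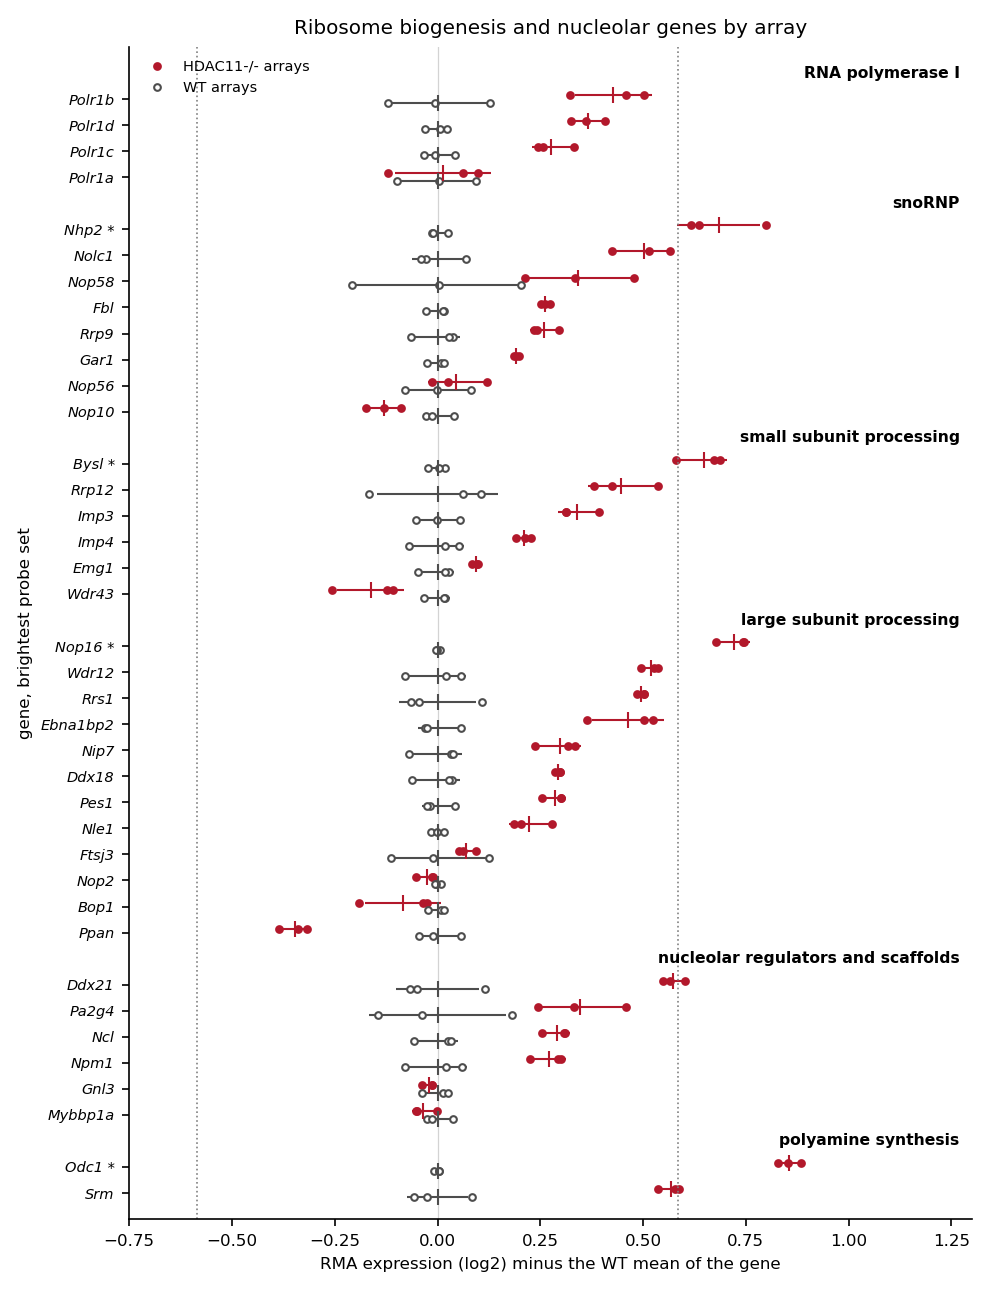
RMA expression (log2) of 38 genes on each array, less the WT mean of the gene, with the HDAC11-/- arrays as filled red points and the WT arrays as open points; ticks and bars show the mean and SD of 3 arrays, dotted lines the 1.5-fold threshold, and asterisks the called genes. The red points lie to the right of the open points for 28 genes, and Ppan is the farthest to the left at a log2 fold change of -0.35.

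The 150 bases before the annotated start are shown for the 4 genes called higher and for the 2 genes of the list that carry an E-box there, since 26 of the 38 genes rose and the E-box is the sequence bound by Myc and Max. Sequences are from RefSeq on GRCm38.p6, 5′ to 3′ on the strand of the gene, and capitals mark the E-box CACGTG, which reads the same on both strands, and the GC box GGGCGG or its reverse complement CCGCCC, a binding sequence of the Sp1 family.
Odc1, chr12:17544723-17544872, plus strand: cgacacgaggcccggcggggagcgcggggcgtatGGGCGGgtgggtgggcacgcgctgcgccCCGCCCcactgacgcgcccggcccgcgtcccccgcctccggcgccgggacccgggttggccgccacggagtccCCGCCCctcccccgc
Nop16, chr13:54590075-54590224, minus strand: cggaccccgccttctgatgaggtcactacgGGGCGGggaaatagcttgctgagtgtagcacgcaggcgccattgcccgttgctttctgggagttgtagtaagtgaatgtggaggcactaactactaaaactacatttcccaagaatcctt
Nhp2, chr11:51619623-51619772, plus strand: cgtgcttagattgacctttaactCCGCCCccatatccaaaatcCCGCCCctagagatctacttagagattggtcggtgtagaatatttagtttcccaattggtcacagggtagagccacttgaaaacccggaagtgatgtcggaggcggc
Bysl, chr17:47611493-47611642, minus strand: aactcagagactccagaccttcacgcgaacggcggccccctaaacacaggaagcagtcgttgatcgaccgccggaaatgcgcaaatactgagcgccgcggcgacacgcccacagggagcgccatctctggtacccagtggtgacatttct
Imp4, chr1:34439679-34439828, plus strand: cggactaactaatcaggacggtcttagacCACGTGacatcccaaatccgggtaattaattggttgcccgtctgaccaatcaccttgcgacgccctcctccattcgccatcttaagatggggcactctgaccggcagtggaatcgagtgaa
Nop2, chr6:125131733-125131882, plus strand: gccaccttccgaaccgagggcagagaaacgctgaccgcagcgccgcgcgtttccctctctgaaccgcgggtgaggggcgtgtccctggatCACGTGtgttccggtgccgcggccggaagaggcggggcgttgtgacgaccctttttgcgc

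Promoters of 32 of the 38 measured genes were in the sequence table. An E-box lay in this window in 2 of them, Imp4 and Nop2 (6.25%), against 6.6% of the 9887 genes of the arrays that have a promoter in the table. None of the 4 called genes had one in this window, Imp4 had a log2 fold change of 0.21 and Nop2 of -0.03. Bases farther upstream and bases after the start, introns among them, were not searched, so an E-box there would have been missed. A GC box lay in 17 of the 32 (53.1%), against 51.7% of the genes of the arrays, and in 3 of the 4 called genes, Odc1, Nhp2 and Nop16. These matches describe the letters of the window and are not sites of binding. Whether Myc binds these genes was not tested.

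Both polyamine genes were higher in HDAC11-/- Tregs. Odc1, ornithine decarboxylase, had log2 levels of 11.48, 11.53 and 11.50 on the HDAC11-/- arrays and 10.64, 10.65 and 10.66 on the WT arrays. The groups did not overlap, and the difference was 1.81-fold (log2 fold change of 0.85 ± 0.04, SE, limma adjusted p = 2.83e-05). All 3 of its probe sets were called, at log2 fold changes of 0.85 to 0.86. Srm, which encodes spermidine synthase, stood at 10.03, 10.07 and 10.08 in HDAC11-/- and 9.44, 9.58 and 9.47 in WT, also without overlap. Its 1.48-fold rise (log2 fold change of 0.57 ± 0.05, SE, limma adjusted p = 0.000355) lay just under the fold threshold. Neither enzyme is nucleolar, and without them 24 of 36 genes rose, 3 were called and the median log2 fold change was 0.28.

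RNA polymerase I was represented by 4 subunit genes, and 3 of them rose without reaching 1.5-fold. Polr1b, the second largest subunit, had log2 levels of 8.82, 8.64 and 8.77 in HDAC11-/- and 8.31, 8.44 and 8.19 in WT. The lowest HDAC11-/- array was above the highest WT array, and the difference was 1.35-fold (log2 fold change of 0.43 ± 0.08, SE, limma adjusted p = 0.00562). Polr1d, a subunit shared with RNA polymerase III, stood at 11.59, 11.56 and 11.64 in HDAC11-/- and 11.25, 11.20 and 11.24 in WT, a 1.29-fold difference (log2 fold change of 0.37 ± 0.05, SE, limma adjusted p = 0.00108). Polr1c, the other shared subunit, rose by a log2 fold change of 0.28. Polr1a, the catalytic subunit, had overlapping arrays and a log2 fold change of 0.01 (adjusted p = 0.908) in its brightest probe set, and its other 2 probe sets fell by 0.43 and 0.47 on the log2 scale (adjusted p = 0.000781 and 0.0469).

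Further genes of RNA polymerase I transcription numbered 14, of which 8 rose, 4 fell and 2 were called higher. Among them 5 encode other subunits of the polymerase, and Polr2e, Polr2f and Polr2h of these are shared with other RNA polymerases. Of the 5, 4 rose and none fell. The other 9 encode factors that act with RNA polymerase I, of which 4 rose and 4 fell. SL1 is the complex that places RNA polymerase I at its promoter, and its subunit genes were split. Taf1b had log2 levels of 8.65, 8.69 and 8.72 in HDAC11-/- and 7.88, 7.97 and 8.05 in WT, and was called (log2 fold change of 0.72 ± 0.06, SE, limma adjusted p = 0.000190). Taf1d was called in its brightest probe set (log2 fold change of 0.66, adjusted p = 0.000158), while another of its 5 probe sets fell by 0.27 (adjusted p = 0.0459). Taf1a and Taf1c fell by 0.44 and 0.46 on the log2 scale (adjusted p = 0.000717 and 0.000730), each with 1 probe set. Rrn3, the growth-regulated initiation factor TIF-IA, rose by a log2 fold change of 0.32, and Ubtf, the upstream binding factor UBF, fell by 0.18.

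Among the snoRNP genes 5 of 8 rose, 1 was called and none fell. Nhp2, a core protein of the box H/ACA particles that guide pseudouridylation, had log2 levels of 11.25, 11.06 and 11.08 in HDAC11-/- and 10.47, 10.44 and 10.44 in WT. The groups were well apart, with a 1.61-fold difference (log2 fold change of 0.68 ± 0.06, SE, limma adjusted p = 0.000294), and its second probe set was called as well at 0.85. Its partners in the same particle changed less. Gar1 rose by a log2 fold change of 0.19, and Nop10 was at -0.13 (adjusted p = 0.0608) in the brightest probe set and rose by 0.54 (adjusted p = 0.00195) in the other.

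The box C/D particles guide methylation of the ribosomal RNA. Fbl, the methyltransferase fibrillarin, rose by a log2 fold change of 0.26 (adjusted p = 0.00290) in its brightest probe set, and its other probe set was called at 0.67 (adjusted p = 0.000398). Nop58 had log2 levels of 10.82, 10.68 and 10.56 in HDAC11-/- and 10.55, 10.35 and 10.14 in WT, with adjacent arrays at 10.56 and 10.55 (adjusted p = 0.0510). It lay at the threshold, with adjusted p from 0.000554 to 0.182 over the alternatives. Nop56, its paralogue in the particle, had overlapping arrays and log2 fold changes of 0.04 and -0.04 in its 2 probe sets. Rrp9, a protein of the U3 particle, rose by 0.26. Nolc1, a chaperone of both kinds of particle, stood at 9.52, 9.47 and 9.38 in HDAC11-/- and 9.02, 8.93 and 8.91 in WT, a 1.42-fold rise (log2 fold change of 0.50 ± 0.06, SE, limma adjusted p = 0.000783), with 0.42 and 0.12 in its dimmer probe sets. Of 8 further genes of snoRNP assembly 6 rose, none fell and none was called, with a median of 0.35.

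Processing of the small subunit was represented by 6 genes, of which 4 rose, 1 was called and none fell. Bysl, bystin, which acts in late maturation of the small subunit, had log2 levels of 9.37, 9.35 and 9.26 in HDAC11-/- and 8.66, 8.70 and 8.68 in WT. The WT arrays lay close together and well below, and the difference was 1.57-fold (log2 fold change of 0.65 ± 0.05, SE, limma adjusted p = 0.000150), with 0.31 (adjusted p = 0.00825) in its other probe set. Rrp12 stood at 7.78, 7.62 and 7.67 in HDAC11-/- and 7.35, 7.31 and 7.08 in WT, a 1.36-fold rise (log2 fold change of 0.45 ± 0.09, SE, limma adjusted p = 0.00575). Imp3 and Imp4, which join the U3 particle as partners, rose by log2 fold changes of 0.34 and 0.21. Emg1, a methyltransferase, was at 0.09 (adjusted p = 0.132), and Wdr43 at -0.16 (adjusted p = 0.0528) in the brighter of 2 probe sets.

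Of 41 further genes of the small subunit 23 rose, 2 fell and 16 did neither, with a median of 0.17. Utp18, of the processome that assembles on the precursor, had log2 levels of 10.01, 9.96 and 9.95 in HDAC11-/- and 9.31, 9.25 and 9.35 in WT (log2 fold change of 0.67, adjusted p = 0.000115 from limma). Pno1, an assembly factor, was called at 0.64. Kri1, which was the one gene called lower among all further genes and lost that call on the cre scale (-0.14), stood at 9.94, 9.89 and 9.92 in HDAC11-/- and 10.54, 10.55 and 10.54 in WT (log2 fold change of -0.63 ± 0.04, SE, limma adjusted p = 9.24e-05).

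The large subunit genes of the list ranged from -0.35 to 0.72, with 8 of 12 rising, 1 falling and 1 called. Nop16, a nucleolar protein of large subunit assembly, had log2 levels of 8.41, 8.40 and 8.34 in HDAC11-/- and 7.67, 7.66 and 7.66 in WT. Replicates were nearly identical and the groups far apart, at 1.65-fold (log2 fold change of 0.72 ± 0.04, SE, limma adjusted p = 6.32e-05), with 0.33 (adjusted p = 0.0132) in a dimmer probe set. Ppan, a factor of large subunit processing, was the only gene of the list that fell in its brightest probe set. It stood at 9.27, 9.20 and 9.25 in HDAC11-/- and 9.64, 9.57 and 9.54 in WT (log2 fold change of -0.35 ± 0.05, SE, limma adjusted p = 0.00172), below every WT array and short of 1.5-fold.

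Pes1, Bop1 and Wdr12 encode the 3 proteins of the PeBoW complex, which is needed for processing of the large subunit RNA. Wdr12 had log2 levels of 9.41, 9.37 and 9.42 in HDAC11-/- and 8.94, 8.90 and 8.80 in WT, a 1.43-fold rise (log2 fold change of 0.52 ± 0.05, SE, limma adjusted p = 0.000448). Its dimmer probe set was called in the opposite direction, at -0.79 (SE 0.20, adjusted p = 0.0175), and the mean of the 2 gave -0.13 (adjusted p = 0.367). Pes1 rose by 0.29 and Bop1 was at -0.08 (adjusted p = 0.280). The other genes that rose were Rrs1, Ebna1bp2, Nip7, Ddx18 and Nle1, at log2 fold changes of 0.50, 0.46, 0.30, 0.29 and 0.22. Of these, Ebna1bp2 had a dimmer probe set at -0.19 (adjusted p = 0.185), and of the 2 dimmer probe sets of Ddx18, a helicase gene, one was at 0.09 (adjusted p = 0.223) and one fell by 0.34 (adjusted p = 0.0114). Nop2, an RNA methyltransferase gene, and Ftsj3 were at -0.03 and 0.07. Of 40 further genes of the large subunit 16 rose, 3 fell and 21 did neither, with a median of 0.14. Rrp15 was called at 0.62, and Sbds, which acts in the last step of cytoplasmic maturation, fell by 0.37.

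Among the genes of nucleolar regulators and scaffolds 4 of 6 rose, none fell and none was called. Ncl, nucleolin, rose in all 4 of its probe sets, by log2 fold changes of 0.29 in the brightest, then 0.40, 0.53 and 0.60, the last of which was called (adjusted p = 0.000640). Npm1, nucleophosmin, rose by 0.27 and 0.25 in its 2 probe sets. Ddx21, an RNA helicase that acts in RNA polymerase I transcription, stood at 9.87, 9.82 and 9.84 in HDAC11-/- and 9.22, 9.39 and 9.20 in WT. Its log2 fold change of 0.57 (± 0.06, SE, limma adjusted p = 0.000599) was next under the threshold, and its dimmer probe set was called at 0.62.

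Pa2g4, which encodes the growth regulator EBP1, had log2 levels of 11.02, 10.89 and 10.81 in HDAC11-/- and 10.74, 10.52 and 10.42 in WT, a narrow gap between the groups (log2 fold change of 0.35 ± 0.10, SE, limma adjusted p = 0.0265). Of its other 4 probe sets 3 rose, by 0.24, 0.37 and 0.63, the last of which was called, and the dimmest was at -0.11 (adjusted p = 0.483). Gnl3, nucleostemin, and Mybbp1a, a repressor of ribosomal RNA synthesis, were at -0.02 and -0.03 with overlapping arrays, while the dimmer probe set of Mybbp1a rose by 0.29 (adjusted p = 0.00310).

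**Figure D2:**
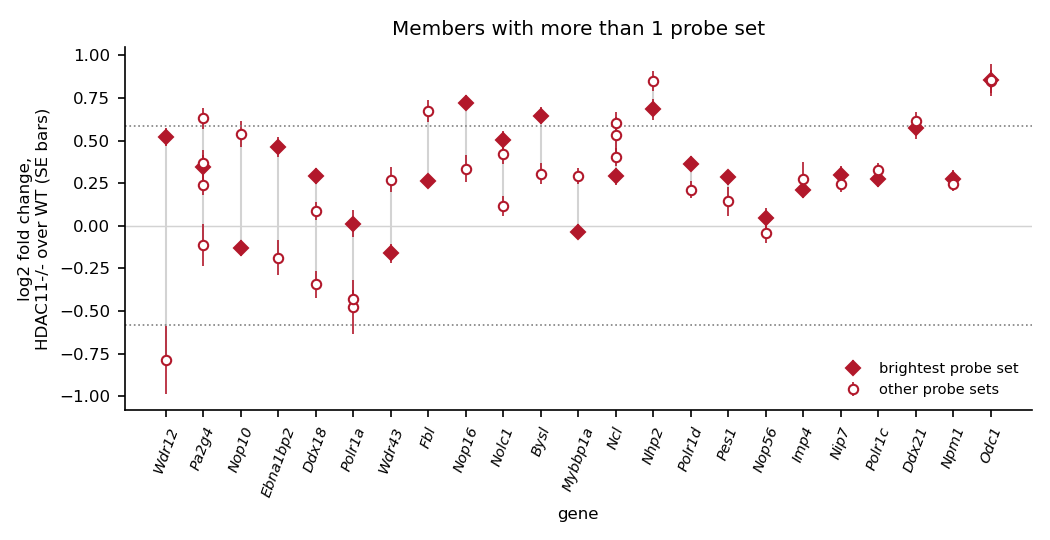
Log2 fold change (HDAC11-/- over WT) with its SE as a bar of every probe set of the 23 genes that have more than 1, ordered by the gap between their probe sets, with diamonds for the brightest and circles for the others. Odc1 at the right has all 3 probe sets at 0.85 to 0.86, and Wdr12 at the left has 0.52 and -0.79.

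Over all 70 probe sets 47 rose and 5 fell, and 11 were called higher (3.87% of all probe sets were) and 1 lower (5.03% of all probe sets were). The share of all probe sets that rose or fell was not counted. By brightest probe set 22.9% of all genes rose and 23.2% fell. Counting a gene by any of its probe sets, 8 genes were called higher (5.31% of all genes were) and 1, Wdr12, lower (6.66% of all genes were). The 4 genes added by this count were Fbl, Ncl, Ddx21 and Pa2g4. Probe sets of a gene differed by more than 1.5-fold for 5 of 23 genes, Wdr12, Pa2g4, Nop10, Ebna1bp2 and Ddx18, and Wdr12 and Ddx18 had probe sets past the adjusted p in both directions. The annotation used here does not say which transcripts or exons the probes match.

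The steps of ribosome biogenesis had similar median log2 fold changes, with ranges that overlapped widely. They were 0.32 for RNA polymerase I, 0.26 for snoRNPs, 0.28 for the small subunit, 0.29 for the large subunit and 0.28 for the nucleolar regulators, while polyamine synthesis stood apart at 0.71 with 2 genes. No difference between these groups was tested, because their genes are not replicates. Of 116 further genes of ribosome biogenesis 61 rose (52.6%), 10 fell and 45 did neither, with a median of 0.18. Over all genes 22.9% rose and 23.2% fell, and over all genes in the range of levels of the list 37.3% rose and 24.8% fell. Of the 116, 5 were called higher (4.31%) and 1 lower. The share called higher was near that of all genes (3.46%) and of all genes in the range of levels of the list (4.23%), and 3.72% of all genes were called lower. On the scale of reference genes all 5 were short of 1.5-fold. Of the 13 genes of the exosome and of RNA turnover among them 8 rose, 1 (Exosc8, at -0.44) fell and none was called.

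**Figure D3:**
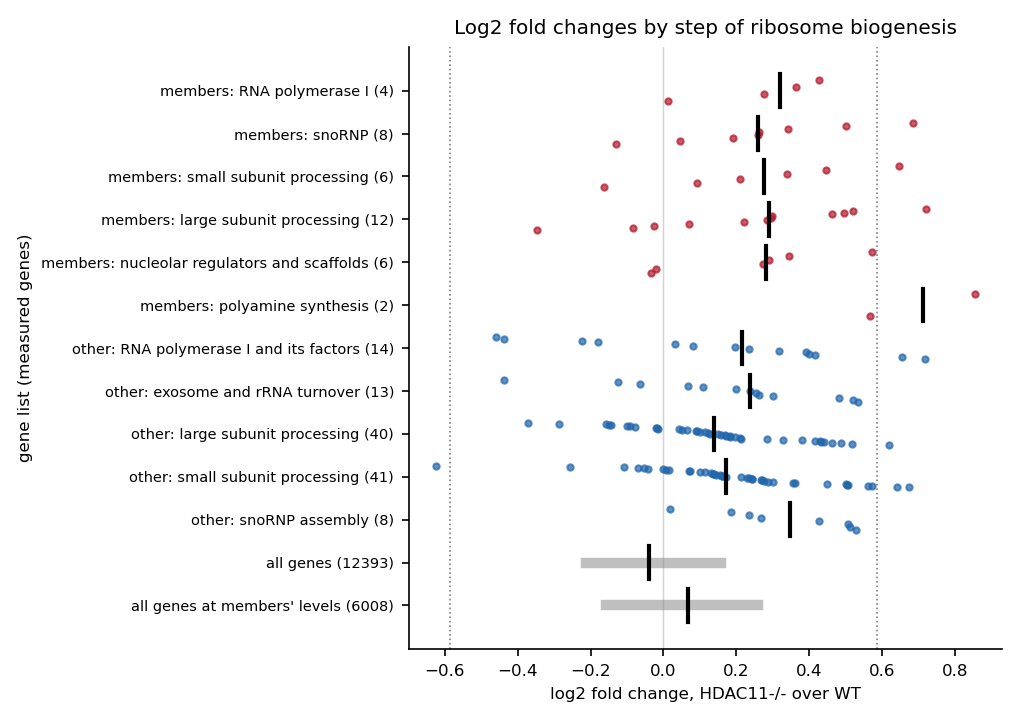
Log2 fold change (HDAC11-/- over WT) of each gene by step, with the 38 genes of the list in red and 116 further genes in blue; black bars mark medians, grey bars the interquartile range of all genes, and dotted lines the 1.5-fold threshold. The 5 nucleolar groups of the list have medians of 0.26 to 0.32, against -0.04 for all genes and 0.07 for all genes in the same range of levels.

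Myc itself was called higher, at 10.75, 10.73 and 10.75 in HDAC11-/- and 10.07, 9.98 and 10.03 in WT (log2 fold change of 0.72 ± 0.05, SE, limma adjusted p = 7.96e-05), and its partner Max rose by 0.23. The arrays also carry a control probe set for 18S ribosomal RNA. It read 11.39, 11.26 and 11.16 in HDAC11-/- and 11.16, 11.11 and 10.93 in WT, with arrays of both genotypes meeting at 11.16, a difference of 0.20 (exact permutation test, two-sided, p = 0.2, where the smallest p that 3 against 3 arrays allow is 0.1). The RNA was amplified before hybridization, and this probe set was not taken as a measure of the ribosomal RNA in the cells.

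The size of the rise depended on how the arrays were scaled. Scaling on 10 reference genes took 0.13 from every log2 fold change. Scaling on 27 bacterial control probe sets, which averaged 3.30 in HDAC11-/- and 3.32 in WT, added 0.02. That level is far below every gene of the list (7.47 to 13.15), so the small shift does not check the scale at their levels. Scaling on 3 cre control probe sets, which read 13.79 in HDAC11-/- and 14.27 in WT, added 0.48. The reference genes were not all unchanged as deposited. Of the 10, 4 rose and 1 fell, with log2 fold changes from -0.15 to 0.51. With reference genes 19 genes of the list rose, 7 fell and 2 were called higher (Odc1 and Nop16), with a median of 0.15, and of all genes 13.3% rose, 42.5% fell and 2.24% were called higher. With the bacterial controls 27 rose, 1 fell and 6 were called higher, with a median of 0.31, and of all genes 24.0% rose, 20.1% fell and 3.87% were called higher. With the cre controls all 38 rose and 27 were called, where 81.2% of all genes rose and 30.9% were called higher. These controls are named for Cre, which the labels give to the HDAC11-/- mice alone, so this scale may not be independent of genotype. Whether Cre RNA of the cells reached these probe sets was not tested. The gap between the median of the list and that of all genes, 0.33, does not depend on a shift of every log2 fold change. The gap to the genes in the range of levels of the list, whose median was 0.07 as deposited, does not depend on it either and is smaller.

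**Figure D4:**
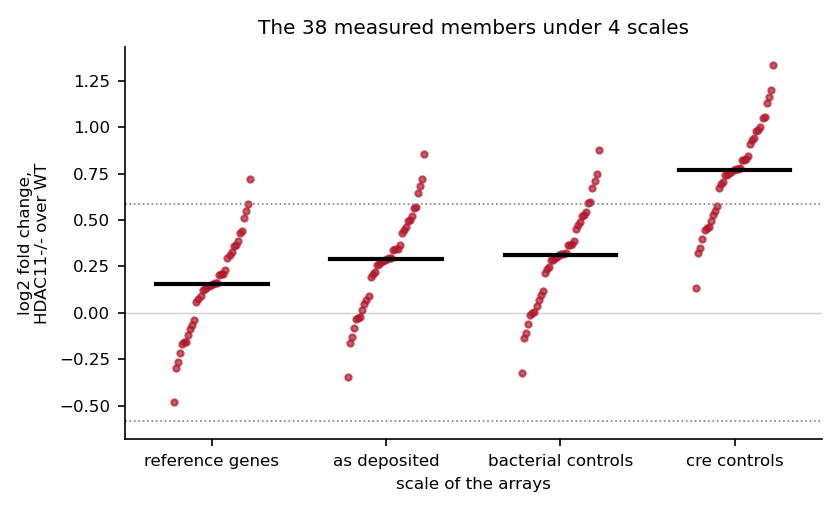
Log2 fold change (HDAC11-/- over WT) of the 38 genes with the arrays scaled on reference genes, as deposited, on bacterial controls and on cre controls; black bars mark medians and dotted lines the 1.5-fold threshold. The medians are 0.15, 0.29, 0.31 and 0.77.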

How the data were processed

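Total RNA of CD4+CD25+ Tregs was amplified, labelled with biotin and hybridized to Affymetrix Mouse430A arrays. The authors normalized the arrays by RMA in the MAYDAY software and deposited the resulting log2 values, 1 for each probe set on each array. The version of the probe definitions and the genome build are not given in the sources used here. Controls made up 45 of the 22671 probe sets and were not tested. Of the 22626 others, 20380 carried 1 gene symbol in the platform annotation, 691 several and 1555 none. No detection calls were used, so the highest of 27 bacterial control probe sets of each array stood for background, and all genes of the list lay above it.

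The 3 HDAC11-/- and 3 WT arrays were compared with lmFit and eBayes of limma 3.58.1 (R 4.3.3), with a term for genotype alone and Benjamini-Hochberg adjustment over all 22626 probe sets. The thresholds, an adjusted p under 0.05 and 1.5-fold, are those of the methods, whose test, SAM, was run as an alternative with all 20 labelings. Each gene was read from the probe set with the highest mean. The members, the role groups, the pathway and marker lists and the tests were chosen with earlier results of these data known. Values on every array are given for called genes of the list and for up to 2 genes per role group with the largest change. They are also given for Taf1b, Utp18, Kri1 and Myc, and not for the other called genes outside the list. Genes whose probe sets differed by over 1.5-fold or in their calls, up to 3 called rises and 3 called falls per pathway list, and Hdac11, Foxp3 and Myc were also named. Array values of Ppan and Nop58, and Cd4, Ctla4, Ikzf2, Il2ra, H2-Aa, Cd74, C1qa, C1qb, Taf1a, Taf1c, Rrn3, Ubtf, Sbds, Exosc8 and Max, were added after their values were seen.

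The fit was first tested on simulated data. Of 50 simulated 1.3-fold changes 22 passed the adjusted p and 0 passed both thresholds. Of 50 at 1.5-fold 35 passed the adjusted p and 20 both, and of 50 at 2-fold 44 passed both. Among 22426 unchanged probe sets 6 passed the adjusted p and 0 both. Changes of the size seen in most genes of the list can therefore be missed. Precision is limited by the 3 arrays per genotype, whose median SD per probe set was 0.07 in HDAC11-/- and 0.09 in WT. Alternatives were SAM, another variance prior, weights for arrays, a block for the replicate number, other scales, leaving out dim probe sets, stricter and looser thresholds, a gene read from other probe sets, and leaving out each array.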

Additional observations from a re-analysis of the deposited data

How the results depend on the processing

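Of the 4 genes called higher, Odc1 kept its call under every alternative except a 2-fold threshold, Nhp2 lost it on the reference gene scale (0.55), Bysl on that scale (0.51) and with the mean of its probe sets (0.48), and Nop16 with that mean (0.53). No alternative read from the brightest probe set called a gene of the list lower. With any probe set counted, 8 genes were called higher and 1 lower (658 and 825 of all genes), and 4 fell at the adjusted p. At 1.3-fold 12 genes were called higher (1146 higher and 1229 lower of all genes), and at 2-fold 0 (152 and 111). The reference gene scale gave 2 called higher, 7 that fell and a median of 0.15 (277 higher and 845 lower of all genes). The bacterial control scale gave a median of 0.31 (480 and 420 of all genes). The cre scale gave 27 called higher, 0 that fell and a median of 0.77 (3828 and 86 of all genes). It turned Nop10 to 0.35, Wdr43 to 0.32, Nop2 to 0.46, Ppan to 0.13, Bop1 to 0.40, Mybbp1a to 0.45 and Gnl3 to 0.46. Preferring probe sets whose names carry no suffix gave a median of 0.31 and turned Nop10 to 0.54, Mybbp1a to 0.29 and Taf1d to -0.27. The mean of all probe sets gave a median of 0.26 and 2 that fell, and turned Polr1a to -0.30, Nop10 to 0.20, Wdr12 to -0.13 and Mybbp1a to 0.13. An intensity trend with a robust prior gave 3 that fell, and so did leaving out dim probe sets. For each of these the cause was not tested beyond the shift or the probe sets that the alternative itself sets.

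Leaving out each array in turn gave 4 to 6 genes called higher, 0 called lower, 24 to 27 that rose, 1 that fell and medians of 0.27 to 0.30 (433 to 462 genes called higher and 450 to 480 lower over all genes). Without WT replicate 2, Ddx21 and Srm passed the fold threshold at 0.63 and 0.61, and without WT replicate 1 Rrp15 lost its call at 0.58. Of the further genes called, the reference gene scale also ended the calls of Taf1b (0.58), Taf1d (0.52), Rrp15 (0.49), Utp18 (0.54) and Pno1 (0.51), the cre scale that of Kri1 (-0.14), the mean of all probe sets that of Taf1d (0.23), and a 2-fold threshold all 6. Same-numbered arrays deviated together in 2 of 3 pairs (correlations of 0.23, -0.02 and 0.16), while arrays of different number were at -0.21 to 0.06. The labels name no pairing, so the main fit had no block, and whether the numbers pair the arrays was not settled. A fit with the replicate block called 4 genes of the list higher and 0 lower, with 27 that rose, 1 that fell and a median of 0.29 (430 and 462 over all genes). The gene added to those that rose was Nop58 (adjusted p = 0.00876 with the block). SAM, array weights, an adjusted p under 0.01 and the probe set brightest in WT left each count within 1.5 times.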
